A study of Rattus norvegicus with 3 samples.

Results

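The genes described here are 10 ligands of the transforming growth factor beta (TGF-beta) family, measured in whole kidney of ethylene glycol-treated rats. They were taken by gene symbol from a list of names: Tgfb1, Tgfb2, Tgfb3, the bone morphogenetic protein genes Bmp2, Bmp4, Bmp6 and Bmp7, the activin subunit genes Inhba and Inhbb, and Gdf15, out of 20667 genes that the array files name on their own. All 10 were found, each on 1 transcript cluster, the array's set of probes for a locus, and no member stood on a cluster shared with another gene. RNA came from kidneys of 3 male rats on Clariom S arrays, 1 rat and 1 array for each of 3 groups: a control, day 2 and day 5 of ethylene glycol (EG). EG, the main ingredient of antifreeze, is broken down to oxalate, which crystallises with calcium in the kidney, and it was given orally at 8 g/kg. The labels word the 2 and 5 days both as the length of treatment and as the time after it, and they name no strain, age or control treatment. With 1 array per group there was no spread between animals, no test was run, and every difference below describes these 3 arrays.

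Ligands of this family are secreted as pairs of chains and bind paired type I and type II receptor kinases. The receptors phosphorylate SMAD proteins, SMAD2 and SMAD3 for TGF-beta and activin and SMAD1, SMAD5 and SMAD9 for bone morphogenetic proteins (BMPs), which then enter the nucleus with SMAD4. In the kidney TGF-beta is best known for driving matrix deposition in fibrosis, whereas Bmp7 is needed for kidney development and is known in rodent injury models for opposing TGF-beta. Gdf15 is a distant member of the family that injured tissue secretes as a stress hormone.

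Values are deposited log2 signals. A background level of 5.34 log2 was taken from 1059 olfactory receptor genes (their 95th percentile), and a gene counted as measured where at least 1 array reached it, which held for 13546 genes and 8 of the 10 ligands. Values under the level were set to it before a difference was taken, so that a difference with 1 side under it is a lower bound. The array medians were 6.21 (control), 6.26 (day 2) and 6.3 (day 5). A gene was counted as apart where it differed by 2-fold or more (1 log2 unit). Of all measured genes, 4.45% were higher and 2.45% lower than the control at day 2, and 4.75% and 3.62% at day 5. Day 5 against day 2 gave 2.21% higher and 3.34% lower. These shares stand beside the counts of every list below. Of 10 listed markers each, kidney identity was borne out by the proximal tubule and by the thick limb, distal and collecting duct lists, which had 0 members under background on any array. In whole tissue, a change in the number of cells of a type and a change in RNA per cell cannot be told apart.

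Promoter windows are shown for the 3 ligands described most closely: Tgfb1, the member past 2-fold against control, Bmp4, lower on both EG arrays, and Bmp6, the member furthest apart between the EG arrays among those over background on all arrays. Each runs from 250 bases before to 50 bases after the annotated start, 5′ to 3′ on the gene's strand, from RefSeq on assembly GRCr8, which is not the build of the array files. They lie at chr1:90324062-90324361 (plus strand), chr15:22101884-22102183 (minus strand) and chr17:26675212-26675511 (minus strand). Capitals mark the GC box GGGCGG and the core TGACG of the CREB/ATF site, searched on both strands.
Tgfb1: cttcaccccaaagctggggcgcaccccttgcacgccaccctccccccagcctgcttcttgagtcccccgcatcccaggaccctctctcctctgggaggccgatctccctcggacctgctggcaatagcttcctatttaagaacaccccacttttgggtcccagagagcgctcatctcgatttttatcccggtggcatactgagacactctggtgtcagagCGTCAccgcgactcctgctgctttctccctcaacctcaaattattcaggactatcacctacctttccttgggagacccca
Bmp4: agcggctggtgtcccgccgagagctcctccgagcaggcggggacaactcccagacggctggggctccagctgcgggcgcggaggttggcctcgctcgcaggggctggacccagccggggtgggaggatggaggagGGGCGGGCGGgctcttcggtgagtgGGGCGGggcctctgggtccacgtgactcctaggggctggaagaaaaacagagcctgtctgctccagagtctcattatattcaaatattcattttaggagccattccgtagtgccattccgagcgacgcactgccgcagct
Bmp6: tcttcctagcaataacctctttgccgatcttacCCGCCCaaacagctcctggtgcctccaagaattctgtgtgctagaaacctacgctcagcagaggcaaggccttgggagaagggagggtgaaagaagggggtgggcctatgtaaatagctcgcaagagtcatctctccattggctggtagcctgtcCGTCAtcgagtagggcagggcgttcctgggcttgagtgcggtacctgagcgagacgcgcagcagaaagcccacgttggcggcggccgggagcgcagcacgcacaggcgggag

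RefSeq windows were matched for 8 ligands, all but Bmp2 and Bmp7, and Gdf15 had a window for each of 2 starts. Besides the marked motifs, the AP-1 site TGANTCA and the SMAD palindrome GTCTAGAC were searched. Of all 33469 windows of 300 bases, 33.1% held the GC box, 21.2% the CREB/ATF core, 7.3% the AP-1 site and 0.2% the SMAD palindrome. The Bmp4 window held 3 GC boxes, 2 of them overlapping, and no CREB/ATF core. The Bmp6 window held 1 GC box and 1 CREB/ATF core, and the Tgfb1 window held 1 CREB/ATF core and no GC box. No window of the 8 ligands held the AP-1 site or the palindrome, which says only that these letters are not in these windows.

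Tgfb1 encodes the TGF-beta form most often tied to renal fibrosis. Its signal was 7.76 log2 in the control, 8.67 at day 2 and 9.01 at day 5. Both EG arrays were above the control, and the day 5 array was the highest. The difference was 0.91 log2 at day 2, or 1.88-fold, and 1.25 log2 at day 5, or 2.38-fold. No other ligand passed 2-fold over the background level, although Tgfb2 between the EG arrays has only a lower bound. Among measured genes, 94.3% had a lower difference than Tgfb1 at day 2 and 97.7% at day 5, where it ranked 306 from the highest. Between the EG arrays it differed by 0.34.

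The other TGF-beta forms did not share the Tgfb1 values. Tgfb2, which signals through the same receptors but leans on the co-receptor betaglycan, was at 5.27 in the control, 4.97 at day 2 and 6.04 at day 5. Only the day 5 array reached background, where Tgfb2 was at least 1.63-fold higher than in the control and than at day 2 (0.7 log2 for both). Its readings at day 2 and day 5, taken without the background level, were 1.07 log2 apart, which is past 2-fold. Taken the same way, 3.59% of olfactory receptor genes were also 2-fold apart between the EG arrays. Tgfb3, the third form, was at 5.56, 5.11 and 5.49 in the same order. The control and day 5 arrays lay just over background and the day 2 array just under it, with a difference of at least 0.22 log2 below the control at day 2 and of -0.07 at day 5.

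**Figure D1:**
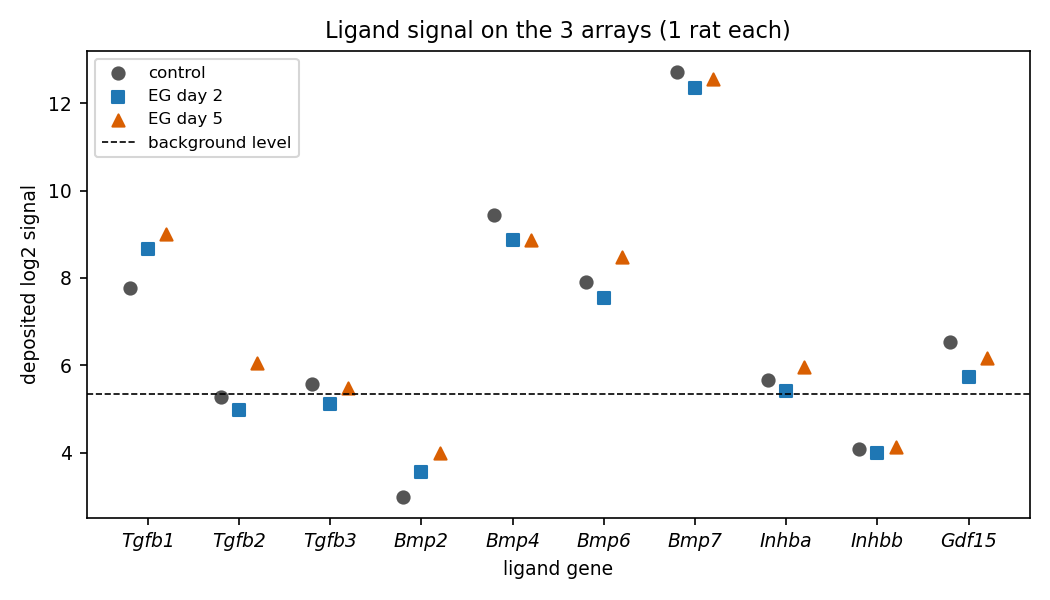
Deposited log2 signal (vertical axis) of the 10 ligand genes on each of the arrays (control, day 2, day 5), 1 point per array, with the background level of 5.34 as a dashed line. Tgfb1 lies higher on both EG arrays than on the control, Bmp4 lies lower on both, and Bmp2 and Inhbb lie under the line on all arrays.

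Among the BMP ligands, Bmp4 was lower on both EG arrays, Bmp6 differed in direction between them, and Bmp7 stayed within 0.36 log2. Bmp4, a ligand with roles in ureter and collecting system development, was at 9.44 in the control, 8.88 at day 2 and 8.86 at day 5. Both EG arrays were 0.02 log2 apart and below the control, by 0.56 and 0.58 log2 (1.47-fold and 1.49-fold lower, values of -0.56 and -0.58). Of measured genes, 9.7% had a lower difference at day 2 and 12.0% at day 5.

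Bmp6, known in liver endothelium as the ligand that sets hepcidin by iron load, was at 7.91 in the control, 7.54 at day 2 and 8.48 at day 5. The control lay between the EG arrays, with day 2 the lowest and day 5 the highest. The differences from control were -0.37 and 0.57. Day 5 stood above day 2 by 0.94 log2, or 1.92-fold, just inside 2-fold, and 97.2% of measured genes had a lower difference in that comparison. Endothelial markers had a mean level of 10.56 log2 in the control, 10.39 at day 2 and 10.49 at day 5 (8 of 9 measured, Vwf under background on all). Their part in the Bmp6 values was not tested.

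Bmp7 was at 12.72 in the control, 12.36 at day 2 and 12.55 at day 5. The control was the highest array and day 2 the lowest, by differences of -0.36 and, at day 5, -0.17. A fold of 1.28 lower at day 2 was the widest for Bmp7. The mean level of the thick limb, distal and collecting duct markers, which label segments known to express Bmp7, was 12.92, 12.81 and 13.08 log2 in the same order. Members of that list went both ways, with 0 of 10 higher and 1 lower by 2-fold or more at day 2 and 2 higher and 1 lower at day 5. Of all measured genes, 4.45% were higher and 2.45% lower at day 2, and 4.75% and 3.62% at day 5. Bmp2 read 2.99, 3.56 and 3.98 log2, all under background, so it has no fold here. The day 5 reading was the highest of the 3, at a level where olfactory receptor genes also read.

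Inhba encodes the subunit of activin A, an inducer of matrix and of inflammation. It was at 5.66 in the control, 5.42 at day 2 and 5.96 at day 5, not far over background on any array. Day 2 was the lowest and day 5 the highest, at -0.24 and 0.3 log2 from the control and 0.54 apart. Inhbb, the subunit of activin B, read 4.07, 4.0 and 4.12, under background on all 3 arrays, and has no fold.

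Gdf15 was at 6.54 in the control, 5.73 at day 2 and 6.16 at day 5. The control was the highest array and day 2 the lowest. The difference was -0.81 log2 at day 2 (1.75-fold lower), with 4.3% of measured genes lower still, and -0.38 at day 5. The day 2 value lay not far over background. With the background raised to the median of all values (6.4 log2), Gdf15 on both EG arrays lay under it, which left only lower bounds. The Gdf15 values stood on arrays where 8 of 9 measured injured tubule markers exceeded the control by 2-fold or more at each time. Of 12 measured genes of the stress pathways known to induce Gdf15 (ATF4, CHOP and p53), 1 was higher by 2-fold or more and 2 were lower at day 2, and 0 and 2 at day 5. Over all measured genes the shares were 4.45% higher and 2.45% lower at day 2, and 4.75% and 3.62% at day 5. Asns, an ATF4-induced asparagine synthetase, was higher by 1.36 at day 2 and by 0.94 at day 5. Egr1 and Atf3, immediate early transcription factors, differed by -3.0 and -1.23 at day 2 and by -4.38 and -1.46 at day 5. Ddit3, which encodes CHOP, was at -0.1 and 0.44, and was named after its values were seen.

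**Figure D2:**
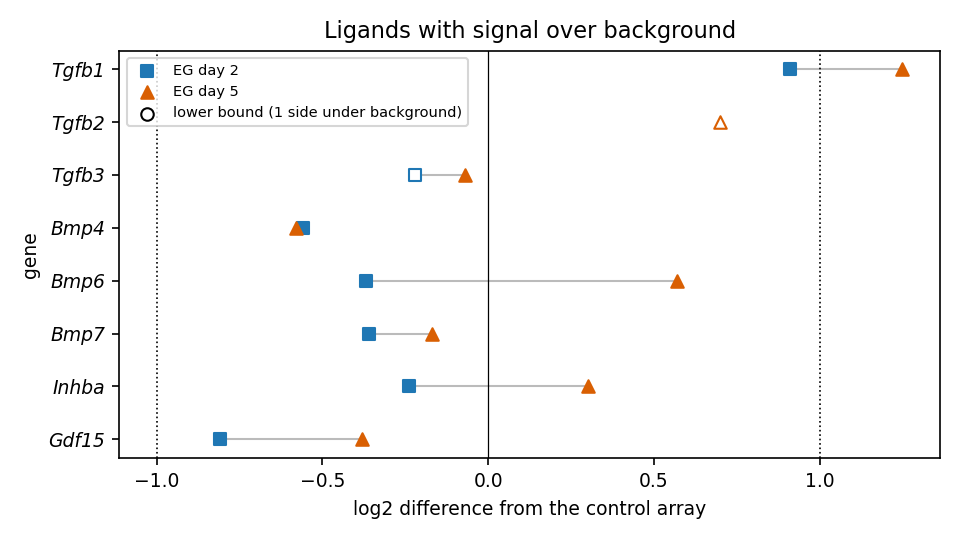
Log2 difference from the control array (horizontal axis) of the 8 ligands with signal over background, for day 2 (squares) and day 5 (triangles), with open symbols for lower bounds, no symbol where both sides were under background and dotted lines at 2-fold. Only the Tgfb1 triangle, at 1.25, passes a dotted line, and Bmp6 and Inhba have symbols on both sides of 0.

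Counted together, 0 of the 8 measured ligands were 2-fold or more higher and 0 were lower at day 2, beside 4.45% and 2.45% of all measured genes. At day 5, 1 was higher and 0 lower, beside 4.75% and 3.62%. Day 5 against day 2 gave 0 and 0, beside 2.21% and 3.34% of all measured genes. Over 8 genes, counts of 0 and 1 are not told apart from these shares. The ligands' median difference was -0.30 at day 2, where all measured genes had 0.05, and 0.115 at day 5, where all had 0.01. Between the EG arrays it was 0.385, against -0.03 for all measured genes, and 7 of the 8 read higher at day 5, Bmp4 (-0.02) being the exception. Both differences from control use the same control array. Among all genes apart at 2-fold, the higher ones made up 64.5% at day 2 (53.9% after quantile normalization) and 56.7% at day 5 (43.2% after centring each array on its median), so the balance of directions depends on the scaling.

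Other ligands of the family and its GDNF branch were mostly under background: 5 of 26 were measured. Of these, 1 was lower than the control by 2-fold or more at day 2, beside 2.45% of all measured genes. Bmp3, a ligand known to antagonise other BMPs in bone, was at 7.46 in the control, 5.77 at day 2 and 6.84 at day 5, a difference of -1.69 and then -0.62.

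Cell type markers differed beside Tgfb1, whose transcript many cell types make. Their counts stand beside shares of all measured genes of 4.45% higher and 2.45% lower at day 2, and 4.75% and 3.62% at day 5. Of 9 measured macrophage markers, 5 exceeded the control by 2-fold or more at day 2 and 6 at day 5, with 0 lower, and their mean level was 7.39 log2 in the control, 8.4 at day 2 and 8.68 at day 5. Itgam was under background on all arrays and Cd163 on the control and day 2 arrays. Of 8 measured fibroblast and pericyte markers, 2 were 2-fold or more higher at day 2 and 5 at day 5, with 0 lower by that much. Their mean levels were 10.09, 10.62 and 11.21, and Lum and Postn were under background on all arrays. At each time 6 of the 8 read above the control and 2 below it. The 2 were Rgs5 (-0.38 and -0.4) and Cspg4 (a lower bound of 0.1 below at both), named after their values were seen. Pdgfrb of the same list, also named after its values were seen, was higher by 0.58 and 1.76. Proximal tubule markers had mean levels of 16.23, 15.24 and 14.74 in the same order, with 7 of 10 at least 2-fold lower at day 2 and 8 of 10 at day 5, and podocyte markers 8.33, 8.33 and 8.3. The 9 measured injured tubule markers had the widest shift of these lists, with mean levels of 8.22, 12.91 and 12.35. The part of these cell types and of tubule injury in the Tgfb1 values was not tested.

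The genes nearest to Tgfb1 in both differences from control, among 11928 genes over background on all arrays, were LOC102554024, Nup88 and Rps4x-ps9, at Euclidean distances of 0.036, 0.041 and 0.057 log2. Nup88, a nuclear pore gene, differed by 0.87 and 1.26. In all 74 genes lay within 0.2 log2 of Tgfb1, so on 3 arrays its pattern is shared by many genes.

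Type I and type II receptors differed less than Tgfb1 did at day 5. Of 11 measured type I and type II receptor genes, 0 were 2-fold apart from the control at either time. Between the EG arrays 1 was, Acvr1c, a type I receptor for activins and Nodal, at 6.95, 7.92 and 6.85, so that it differed from the control by 0.97 and -0.1 and was 1.07 lower (-1.07) at day 5 than at day 2. Acvr1c was named after its values were seen, and 3.34% of all measured genes were lower by 2-fold or more in that comparison. Tgfbr1 and Tgfbr2, the receptor pair of TGF-beta, differed by 0.08 and 0.64 at day 2 and by 0.1 and 0.6 at day 5, and were named as the receptors of Tgfb1. Of 7 co-receptor genes 4 were measured, and 1 of these was 2-fold or more higher at day 2 and 2 at day 5, beside 4.45% and 4.75% of all measured genes. Rgma, a BMP co-receptor, was at 5.88, 6.98 and 7.25, a difference of 1.1 and 1.37. With the background raised to the median of all values (6.4 log2), its control lay under that level. This left lower bounds of 0.58 and 0.85, which do not show 2-fold. Eng (endoglin, which binds ligand on endothelium) was higher by 0.93 and 1.11. All 4 measured co-receptors read above the control on both EG arrays. Gfral, the receptor of Gdf15 in the hindbrain, was under background on all arrays.

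Latent TGF-beta must be released from a complex with its propeptide and a binding protein. Of 17 measured genes for latency, storage and activation, 4 exceeded the control by 2-fold or more at each time and 0 were lower, with medians of 0.62 and 0.44 log2. The shares of all measured genes that were higher were 4.45% and 4.75%, and those lower 2.45% and 3.62%. Medians over all measured genes were 0.05 and 0.01. These shares and medians serve for the lists below too. Ltbp4, a latent TGF-beta binding protein, was at 8.17, 8.94 and 10.13, a difference of 0.77 and then 1.96. Thbs1 (thrombospondin 1, an activator of latent TGF-beta) was higher by 1.24 and 1.4. The proteoglycan genes Dcn and Bgn, whose products bind TGF-beta, were higher by 1.86 and 0.98 at day 2 and by 1.04 and 1.74 at day 5. Dcn is also on the fibroblast marker list, and its day 5 value was 0.95, inside 2-fold, with each array centred on its median. At day 2 Lrrc32 (1.19), which tethers latent TGF-beta to cell surfaces, and the integrin gene Itgav (1.05) completed the 4, and both were named after their values were seen.

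Among antagonists, 2 of 12 measured genes exceeded the control by 2-fold or more at day 2 and 1 at day 5, and 0 were lower. Grem1, a secreted BMP antagonist known from fibrotic kidney, was at 7.37, 8.69 and 8.86, a difference of 1.32 and 1.49. Fst (follistatin, which traps activin) was higher by 1.06 at day 2 and 0.57 at day 5. The antagonist medians were -0.17 and -0.005, with 5 members above the control and 7 below it at day 2 and 6 and 6 at day 5. The differences ran from -0.73 to 1.32 at day 2 and from -0.56 to 1.49 at day 5.

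**Figure D3:**
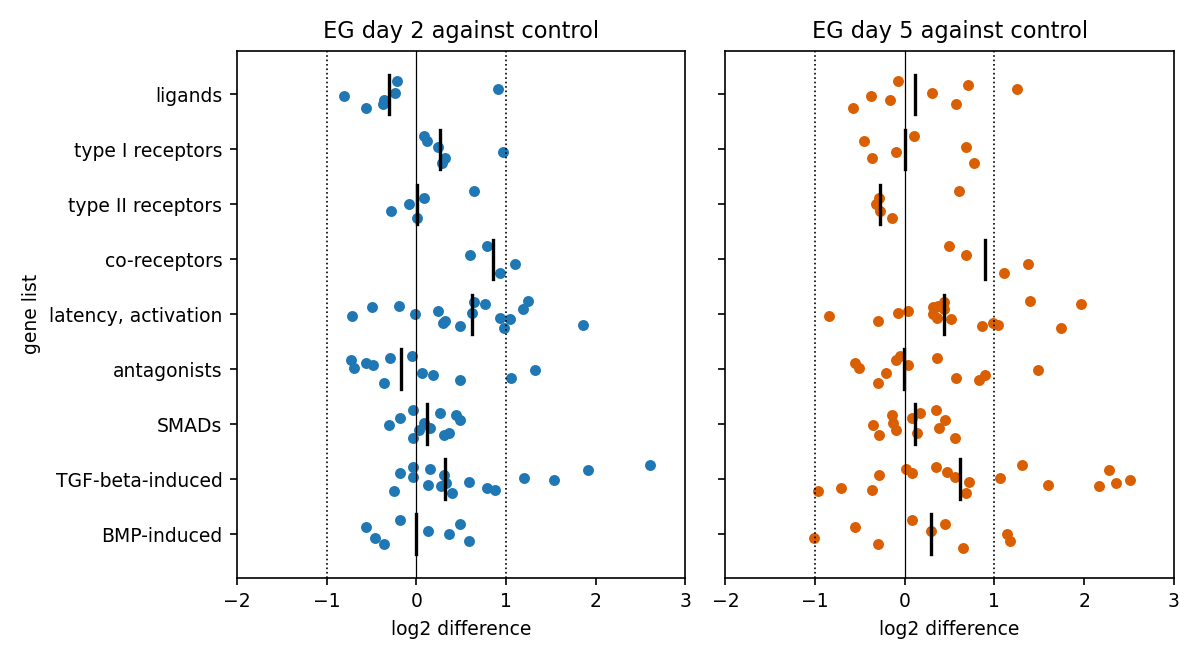
Log2 difference from control (horizontal axis) of the measured genes of the ligand, receptor, co-receptor, latency, antagonist, SMAD, TGF-beta-induced and BMP-induced lists. Day 2 is on the left and day 5 on the right, 1 point per gene, with genes under background on both sides left out. Black bars stand at list medians and dotted lines at 2-fold. The lists of other family ligands and of stress genes around Gdf15 are not drawn. No receptor or SMAD gene lies past a dotted line, whereas co-receptors, latency genes, antagonists and TGF-beta-induced genes have points beyond the right one. At day 5 the ligand Tgfb1 (1.25) and the BMP-induced Id1 (1.17) and Id3 (1.14) also lie beyond the right line, and Id2 (-1.01) beyond the left one.

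The 12 measured genes for SMADs and their inhibitors lay between -0.30 and 0.49 at day 2 and between -0.35 and 0.56 at day 5, with 0 past 2-fold. SMAD signalling runs through phosphorylation, which these arrays do not measure.

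Genes known to be induced by TGF-beta had 4 of 18 measured members 2-fold or more above the control at day 2 and 7 at day 5, with 0 lower at either time and medians of 0.32 and 0.62. Fn1 (fibronectin) was at 12.04, 13.58 and 14.55, Tagln (transgelin, an actin-binding protein of smooth muscle) at 8.47, 10.38 and 10.75, and Timp1, an inhibitor of matrix proteases, at 5.67, 8.28 and 6.98. Col3a1, a fibrillar collagen, read 10.33 and 10.66 in the control and at day 2 and 12.69 at day 5. Single genes of the list went separate ways between the EG arrays, where 3 were at least 2-fold higher at day 5 and 3 lower. Of all measured genes, 2.21% were higher and 3.34% lower in that comparison. The higher ones were Col1a1 (1.9), Col1a2 (1.47) and Col3a1 (2.03), all fibrillar collagens. The lower ones were Cdkn1a (at least 1.5 log2 lower), Timp1 (-1.3) and the matricellular gene Ccn2 (-1.24, Ctgf on the array). Ccn2, Cdkn1a, Col1a1 and Col1a2 were named after their values were seen. Col1a1, Col3a1, Acta2 and Postn of this list are also fibroblast and pericyte markers, whose mean level was highest at day 5, and the part of those cells was not tested.

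Genes known to be induced by BMPs had 0 of 9 measured members 2-fold apart at day 2, and 2 higher and 1 lower at day 5, with medians of 0.0 and 0.29. Of these members, Smad6, Smad7, Bambi and Nog are also on the SMAD or antagonist list. The TGF-beta-induced list shares Smad7, Skil, Pmepa1 and Tgif1 with the SMAD list. The medians of these lists are therefore not separate, and the genes are named only as shared. Id1 and Id3, inhibitors of helix-loop-helix factors, were higher by 0.59 and 0.36 at day 2 and by 1.17 and 1.14 at day 5. Id2 of the same family was lower, at -0.46 and -1.01, and its second value was -0.88 after quantile normalization. With the same raised background, other dim genes of the pathway had their control under it and were left with lower bounds. These were 0.24 for Fst on day 2, and 0.76 for Id3 and 0.58 for Timp1 on day 5, which no longer show 2-fold. On the day 5 array Bmp6 was 0.57 above the control, Bmp4 was at -0.58 and Bmp7 at -0.17.

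**Figure D4:**
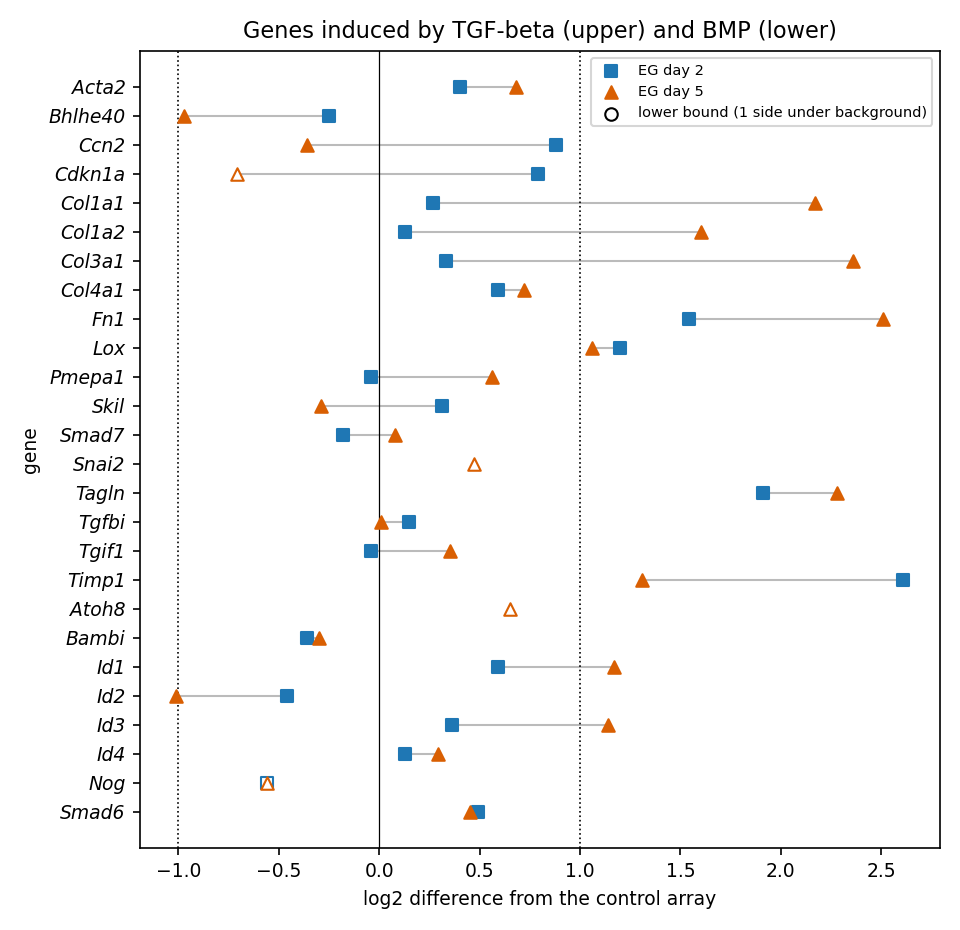
Log2 difference from control (horizontal axis) at day 2 (squares) and day 5 (triangles) of measured genes known to be induced by TGF-beta (upper rows, Acta2 to Timp1) and by BMPs (lower rows, Atoh8 to Smad6), with open symbols for lower bounds and dotted lines at 2-fold. Among TGF-beta-induced genes, Col1a1, Col1a2 and Col3a1 pass the right dotted line at day 5 and not at day 2, whereas Fn1, Tagln, Timp1 and Lox pass it at both times. Lox (1.2 and 1.06) was named after its values were seen.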

How the data were processed

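Log2 signals per transcript cluster of 3 Clariom S rat arrays were made by the authors with the program Transcriptome Analysis Console (per the file headers) on the rn6 annotation without a filter. Its version and its background, summarisation and normalization settings were not given in the sources used here, nor what the column names' averages are over. Both deposited tables held the same log2 values (69564 of 69564), which reach 19.93, so folds are on the deposited scale.

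Of 23188 clusters, 21502 naming 1 gene were kept, and the brightest stood for a gene. The floor, the 2-fold count and the medians were computed with Python 3.11.15, pandas 2.3.3 and numpy 2.4.6, and the counting was tested on simulated data. Array number limits the precision. No p-value is given. The members and lists were chosen with earlier results of these data known. Named genes are all members, up to 4 genes per list that were 2-fold or more from control with the largest differences, the 3 genes nearest to a 2-fold member, and exceptions marked in the text. Of the lists, Gdf1, Bmpr1b, Ski, Synpo and Sox9 stood on clusters naming several genes and were left out, 2 more genes of the lists as first written are not reported here and are in no count of a list, and symbols were updated through RefSeq (GRCr8). Alternatives covered scaling, background, cluster choice and the fold counted.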

Additional observations from a re-analysis of the deposited data

Results flagged for a closer look

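Bmp6 and Inhba had opposite signs against the control at the 2 time points. Bmp6 was at -0.37 at day 2 and 0.57 at day 5, so that day 5 stood 0.94 log2 above day 2. Inhba was at -0.24 and 0.3, 0.54 log2 apart, on arrays where it lay close to background. With 1 array per time point these differences between the time points were not tested.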

How the results depend on the processing

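Over the alternative scalings, background levels and cluster rules, 127 of 129 recomputed ligand differences stayed on the same side of 2-fold. The exceptions were both Tgfb2 between the EG arrays, at 1.07 log2 with the background lowered to the olfactory receptor median or removed, which put 1 ligand past 2-fold there in place of 0. Much of that count was fixed in advance. All 10 ligands stand on 1 cluster each, so the cluster rule could hardly move them. A lowered or removed background could not move the 6 ligands over background on all arrays. Tgfb1 at day 5 ranged from 1.16 to 1.25. With no background, 5 pathway genes in place of 3 were lower at day 2. The fold counted changed the numbers by construction. At 1.5-fold, 1 ligand was higher and 1 lower at day 2, 2 were higher at day 5 and 2 were higher between the EG arrays, where the shares of all measured genes were 14.8% higher and 9.18% lower at day 2, 15.1% and 12.0% at day 5, and 9.31% and 12.8% between the EG arrays. Pathway genes then numbered 28 higher and 6 lower at day 2, 30 and 8 at day 5, and 15 and 15 between the EG arrays, in place of 12 and 3, 16 and 3, and 5 and 6. At 3-fold, 0 ligands were higher at day 5, and pathway genes numbered 3 higher at day 2, where Egr1 (-3.0) and Bmp3 (-1.69) were lower. They numbered 7 higher and 1 lower at day 5, and 2 higher and 0 lower between the EG arrays. Each of these comparisons held between 0.251% and 0.93% of all measured genes in each direction. Of 340 recomputed differences of other named genes, 8 came to less than 2-fold and 3 passed it. Several of the 8 were lower bounds under the raised background, where the fold itself was not measured. No paired analysis was possible because each group has 1 array. Ligands near background (Tgfb2, Tgfb3, Inhba, and Gdf15 at day 2) are limited by their signal.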
